A study of Mus musculus with 10 samples.

Results

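The genes for the nicotinic and muscarinic acetylcholine receptors, with acetylcholinesterase, were followed in the hippocampus of Dp3Yah mice and their control littermates. The members were chosen by symbol: the nicotinic subunit genes Chrna3, Chrna4, Chrna5, Chrna7, Chrnb2 and Chrnb4, the muscarinic receptor genes Chrm1, Chrm2 and Chrm3, and the esterase gene Ache. All 10 were among the 19939 genes measured here, those with a probe set annotated to 1 gene alone. Each member was represented by 1 such probe set. Expression was read from total RNA of the whole hippocampus, right and left, in male mice aged 16 weeks, with 1 Affymetrix Mouse Gene ST array for each animal. The 5 Dp3Yah mice carried a germline duplication of the part of mouse chromosome 16 from Hspa13 to Gabpa, giving 3 copies of those genes in every cell against 2 in the 5 controls. App, at the end of the engineered segment, stays in 2 complete copies in this line. Both groups had the C57BL/6N background by the labels, whereas the methods of the study describe backcrossing towards C57BL/6J. None of the 10 members lies on chromosome 16, so the comparison asked whether cholinergic receptor expression changed outside the duplicated segment.

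Acetylcholine reaches the hippocampus mainly through axons of the medial septum and the diagonal band, and it acts there on ion channels and on G protein-coupled receptors. Nicotinic receptors are channels made of 5 subunits. The alpha4 and beta2 subunits form the main high-affinity receptor of the brain, alpha7 forms receptors alone, alpha3 and beta4 form receptors of autonomic ganglia and of the medial habenula, and alpha5 joins either pair as an accessory subunit. Muscarinic M1 and M3 receptors couple to Gq and phospholipase C, and M2 couples to Gi and often sits on cholinergic terminals as an autoreceptor. Acetylcholinesterase splits the transmitter in the synaptic cleft.

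The labels matched the arrays. Of 18 listed genes of the duplicated segment 17 were measured by a probe set annotated to 1 gene alone, and Btg3 was not. Of these 17, 16 were higher in Dp3Yah mice. The mean log2 value of the 17 was 7.04 to 7.09 in Dp3Yah mice against 6.73 to 6.80 in controls. Among markers of the hippocampus, 8 of 9 dentate granule cell genes and 9 of 9 measured CA pyramidal cell genes were above array background. So were 12 of 12 interneuron genes, against 70.5% of all genes. Dentate markers had a median log2 difference, Dp3Yah minus control, of -0.18, with 6 of 9 negative (53.2% of all genes). In limma 4 of 9 had an unadjusted p under 0.05 (5.08% of all genes), and none passed the adjusted threshold. The rank test described below put 5 of 9 past its threshold (4.59% of all genes). These were C1ql2, Plk5, Stxbp6 and Fam163b downwards and Calb1 upwards. The part of dentate cells in the values of the members was not tested. That background was set as the 95th percentile of 1027 olfactory receptor genes, a log2 value of 5.09. Dp3Yah replicate 2 held the lowest value of the 10 mice for 23.8% of all genes, a share that was not computed for the other mice. Member differences that changed sign or moved by over 1.5 times without Dp3Yah replicate 2 are given both ways.

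No member was detectably changed in Dp3Yah mice. The count was 0 of 10 with limma adjusted p under 0.05, against 0.0150% of all genes, which were 3 genes of the duplicated segment, all higher. At an unadjusted p under 0.05 the count was again 0 of 10, against 5.08% of all genes. The adjusted threshold called only 3 of the 17 measured genes of the duplicated segment, although 16 were higher and 12 had an unadjusted p under 0.05. Gabpa, 1.36-fold higher with all 5 Dp3Yah mice above all controls, had a limma adjusted p of 0.0785. Changes of that size in members could be missed at this threshold too. The rank test used by the study (FCROS, rewritten from its principle) put 2 of 10 members past its threshold, Chrna5 upwards and Chrm2 downwards, against 4.59% of all genes. As rewritten, its threshold is set by the spread of its statistic over all genes, so a similar share passes in any data. The log2 difference, Dp3Yah minus control, was positive for 7 members and negative for 3, with a median of 0.06 against -0.00 over all genes, and its median size was 0.09 against 0.04. The values of the groups overlapped for 10 of 10 members. Every 95% interval of a difference held 0 and lay inside 1.5-fold in either direction, a log2 difference of 0.585 and the ratio of 3 copies to 2. The outermost bounds were 0.718-fold for Chrm2 and 1.41-fold for Chrna3. In this bulk tissue, fewer cells of a type and less RNA per cell cannot be told apart.

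**Figure D1:**
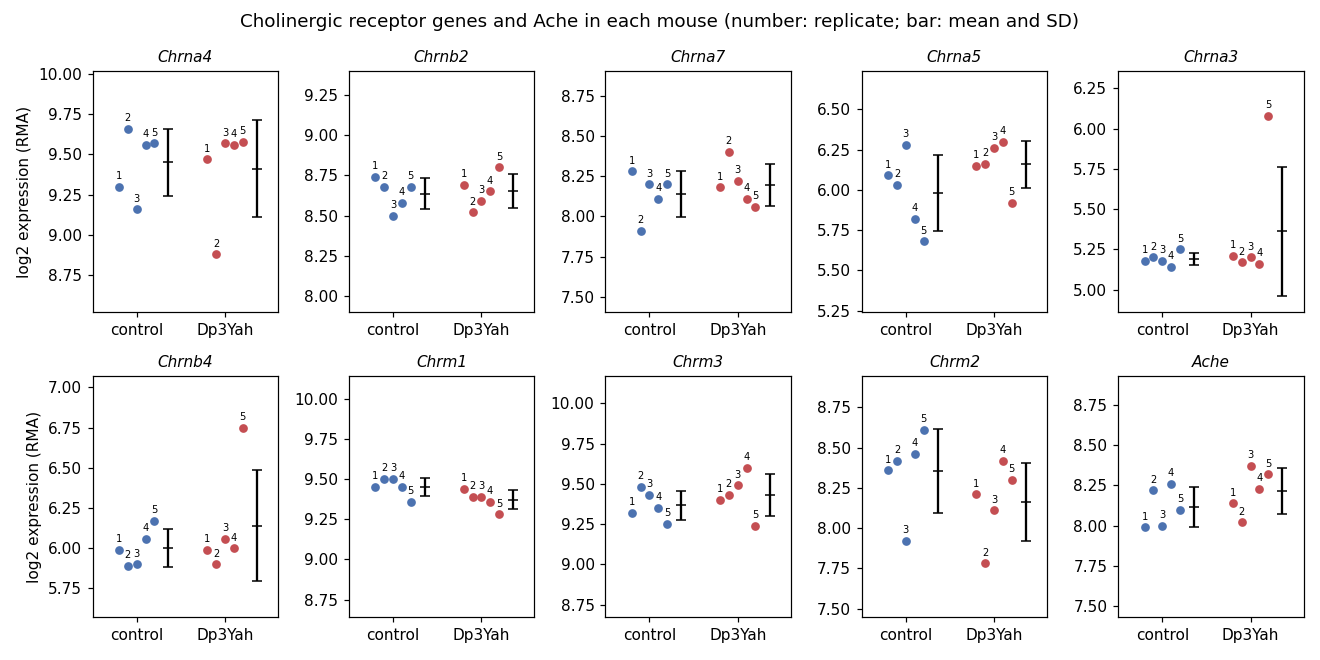
Log2 expression (RMA values) of the 10 members in each of 5 control (blue) and 5 Dp3Yah mice (red). Each point is 1 mouse with its replicate number, the bars give the mean and SD of a group, and every panel spans the same log2 range around its own level. The groups overlap in every panel, and Dp3Yah replicate 5 stands above the other mice for Chrna3 and Chrnb4.

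**Figure D2:**
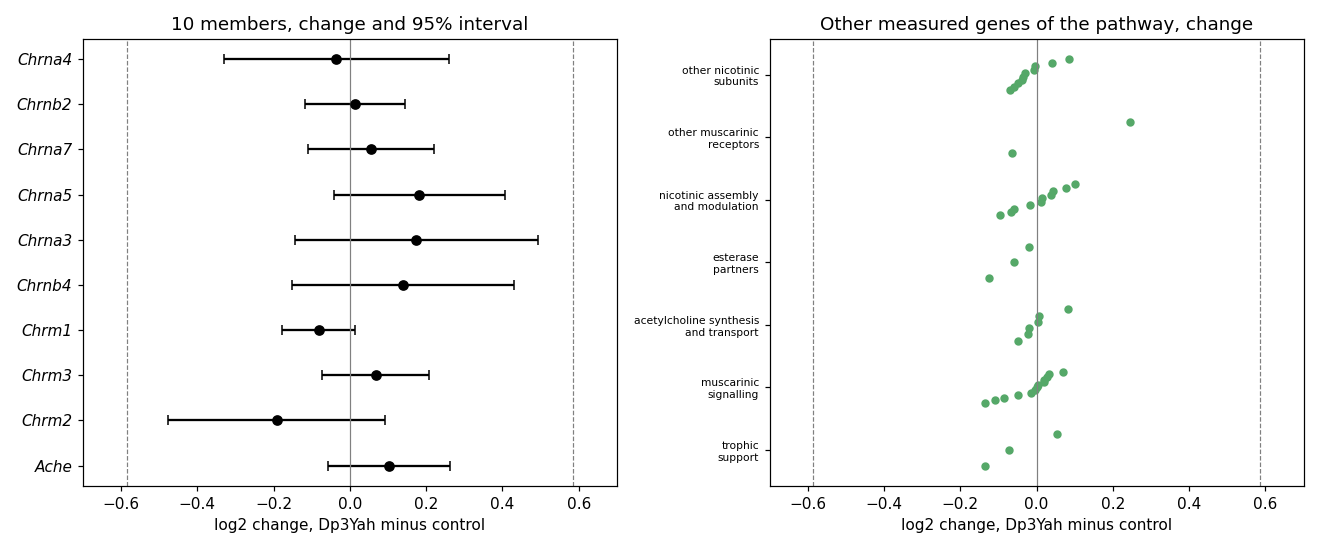
Left, the log2 difference (Dp3Yah minus control) of each member with its 95% interval from limma. Right, the same difference for each of 47 other measured genes of the cholinergic pathway, 1 point per gene, by list. Dashed lines mark 1.5-fold in either direction. All member intervals cross 0 and stay inside the dashed lines, and all points on the right lie between the dashed lines.

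Among the subunits of the high-affinity receptor, Chrna4 lies on chromosome 2 (GRCm38.p6, chr2:181022311-181043579) and Chrnb2 on chromosome 3 (chr3:89753448-89764632). Chrna4 had log2 values of 9.47, 8.88, 9.57, 9.56 and 9.58 in Dp3Yah replicates 1 to 5, and of 9.30, 9.66, 9.16, 9.56 and 9.57 in controls 1 to 5. Dp3Yah replicate 2 was the lowest mouse and control replicate 3 the next, while the other 8 mice of both groups mixed. The log2 difference was -0.04 (SE 0.136, n = 5 per group, limma adjusted p = 0.987). The sign turned without 1 mouse, to 0.10 without Dp3Yah replicate 2 (limma adjusted p = 0.875) and to 0.02 without control replicate 2. Chrnb2 had values of 8.69, 8.52, 8.59, 8.65 and 8.80 in Dp3Yah mice and of 8.74, 8.68, 8.50, 8.58 and 8.68 in controls. These ranges nearly coincided, and the difference of 0.01 (SE 0.0605, limma adjusted p = 0.991) was the smallest of the 10 members. Its 95% interval ran from -0.12 to 0.14, and the difference was 0.05 without Dp3Yah replicate 2 and -0.02 without Dp3Yah replicate 5 or control replicate 3.

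Chrna7, for the subunit of the calcium-permeable receptor that binds alpha-bungarotoxin, lies on chromosome 7 (chr7:63098692-63212526). Its log2 values were 8.18, 8.40, 8.22, 8.11 and 8.06 in Dp3Yah mice and 8.28, 7.91, 8.20, 8.11 and 8.20 in controls. The highest mouse was Dp3Yah replicate 2 and the lowest control replicate 2, with the others within the range between them in both groups. The difference was 0.06 (SE 0.0765, 95% interval -0.11 to 0.22, limma adjusted p = 0.960). Without Dp3Yah replicate 2 it was 0.0035, and without control replicate 2 it was -0.0024.

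Chrna5, Chrna3 and Chrnb4 are neighbours on chromosome 9, within 68127 bases. Chrna5 (chr9:54980827-55011420) is on the forward strand, and its annotation overlaps the end of Chrna3 (chr9:55010117-55026562), on the reverse strand, by 1304 bases. Chrnb4 (chr9:55028154-55048953), also on the reverse strand, lies 1591 bases beyond Chrna3. Their promoter windows are shown because 2 of the 3 genes were high together in 1 mouse and the other was not. Each window holds 250 bases before and 50 after an annotated start in RefSeq (GRCm38.p6), and is written 5′ to 3′ on the strand of the gene. Capitals mark GGGCGG or its complement CCGCCC, the GC box. The table holds 2 windows for Chrna5, chr9:54980630-54980929, in which the gene annotation begins, and chr9:54981238-54981537. The window of Chrna3 is chr9:55026513-55026812 and that of Chrnb4 is chr9:55048495-55048794. The latter lies wholly inside the gene annotation of Chrnb4, so the bases before the outermost start of that gene were not searched.
Chrna5 window 1: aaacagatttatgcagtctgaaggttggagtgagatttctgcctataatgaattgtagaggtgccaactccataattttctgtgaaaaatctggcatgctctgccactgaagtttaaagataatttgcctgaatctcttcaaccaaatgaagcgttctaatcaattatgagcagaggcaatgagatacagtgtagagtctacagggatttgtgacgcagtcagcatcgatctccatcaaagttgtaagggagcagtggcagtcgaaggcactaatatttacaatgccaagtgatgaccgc
Chrna5 window 2: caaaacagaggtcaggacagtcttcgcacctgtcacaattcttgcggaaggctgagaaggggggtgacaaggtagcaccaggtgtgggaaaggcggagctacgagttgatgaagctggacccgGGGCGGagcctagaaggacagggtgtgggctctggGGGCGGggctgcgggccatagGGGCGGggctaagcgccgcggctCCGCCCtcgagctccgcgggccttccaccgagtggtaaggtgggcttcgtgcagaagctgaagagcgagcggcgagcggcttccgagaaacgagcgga
Chrna3: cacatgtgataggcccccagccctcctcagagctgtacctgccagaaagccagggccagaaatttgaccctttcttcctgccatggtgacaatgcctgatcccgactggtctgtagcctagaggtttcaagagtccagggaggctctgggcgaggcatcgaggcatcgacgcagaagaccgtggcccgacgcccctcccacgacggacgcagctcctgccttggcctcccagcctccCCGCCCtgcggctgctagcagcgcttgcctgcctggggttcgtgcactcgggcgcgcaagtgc
Chrnb4: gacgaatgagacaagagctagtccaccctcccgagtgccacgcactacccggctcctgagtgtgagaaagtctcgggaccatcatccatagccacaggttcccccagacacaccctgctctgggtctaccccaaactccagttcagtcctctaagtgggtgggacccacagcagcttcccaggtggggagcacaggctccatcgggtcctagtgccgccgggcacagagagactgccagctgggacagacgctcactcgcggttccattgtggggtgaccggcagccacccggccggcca
The GC box was found 4 times in the second window of Chrna5, 1 time in that of Chrna3 and 0 times in the other 2 windows. Of all 32851 windows of the table, 35.7% held it on either strand. Of the 10 members 9 matched the table, with 10 windows, and 7 of these held a GC box. The E-box CACGTG, searched the same way, was in 2 of the 10 member windows (Chrna7 and Ache) and in 7.15% of all windows. The G+C content was 41.3% in the first window of Chrna5, 65.0% in the second, 64.3% for Chrna3 and 63.0% for Chrnb4.

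Chrna3 was near the background of the arrays in 9 of 10 mice. Its log2 values were 5.21, 5.17, 5.20, 5.16 and 6.08 in Dp3Yah replicates 1 to 5, and 5.18, 5.20, 5.18, 5.14 and 5.25 in controls. Only Dp3Yah replicate 5 left this narrow band, and the other 4 Dp3Yah mice lay among the controls. The SD was 0.399 in Dp3Yah mice against 0.0403 in controls, and the difference was 0.17 (SE 0.147, 95% interval -0.14 to 0.49, limma adjusted p = 0.939). Without Dp3Yah replicate 5 the difference was -0.00 (limma adjusted p = 0.995).

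Chrnb4 followed the same mouse. It was measured at 5.99, 5.90, 6.06, 6.00 and 6.75 in Dp3Yah mice and at 5.99, 5.89, 5.90, 6.06 and 6.17 in controls. Dp3Yah replicate 5 was again the highest of the 10, and the remaining 4 Dp3Yah mice stayed inside the control range. The difference was 0.14 (SE 0.135, 95% interval -0.15 to 0.43, limma adjusted p = 0.948), and it was -0.01 without Dp3Yah replicate 5.

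Chrna5, their neighbour, was low in that mouse. Its values were 6.15, 6.16, 6.26, 6.30 and 5.92 in Dp3Yah mice and 6.09, 6.03, 6.28, 5.82 and 5.68 in controls. Dp3Yah replicate 5 was the lowest of its group, controls 4 and 5 were lower still, and control 3 was second only to Dp3Yah replicate 4. The difference of 0.18 (SE 0.103, 95% interval -0.04 to 0.41) gave a limma adjusted p of 0.922 and an exact permutation p of 0.198, two-sided over 252 assignments. Chrna5 was 1 of the 2 members past the threshold of the rank test.

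Markers of the medial habenula, a nucleus next to the dorsal hippocampus where alpha3 and beta4 are abundant, were also highest in Dp3Yah replicate 5. Of 9 habenula genes 7 had their highest value there, against 11.1% of all genes, and 6 of 9 had a mean above the background bound of 5.09 (Gpr151, Gng8 and Pou4f1 did not). Tac2, which encodes neurokinin B, was at 8.92 in this mouse and between 7.22 and 8.19 in the other 9. Gpr151, an orphan receptor of habenular neurons, was at 5.25 against 4.64 to 4.84, and Calb2, for calretinin, was at 9.95 against 8.29 to 9.20. The gap was narrower for Irx2 (6.16 against 5.79 to 6.05), Gng8 (5.26 against 4.92 to 5.11) and Tac1 (7.42 against 6.59 to 7.27), and Lrrc55 barely exceeded the others (7.65 against 6.61 to 7.63). Pou4f1, the defining transcription factor of the habenula, was second highest there, at 4.92, and Nwd2 was mid-range at 7.97. The mean of the 9 genes was 7.06 in Dp3Yah replicate 5, 6.39 to 6.63 in the other Dp3Yah mice and 6.55 to 6.65 in controls. The part of habenular RNA in the values of Chrna3 and Chrnb4 was not tested. Markers of the thalamus, which adjoins the habenula, had their highest mean in control replicate 5 (8.43), with 8.17 in Dp3Yah replicate 5, and 0 of 7 were highest in the latter. Other lists moved in Dp3Yah replicate 5 as well. The septum and striatum mean was highest there (7.54 against 7.05 to 7.46), the CA pyramidal cell mean was lowest (8.79 against 8.84 to 9.11), and 3 of 8 choroid plexus genes were highest. The part of these tissues in the member values was not tested either.

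**Figure D3:**
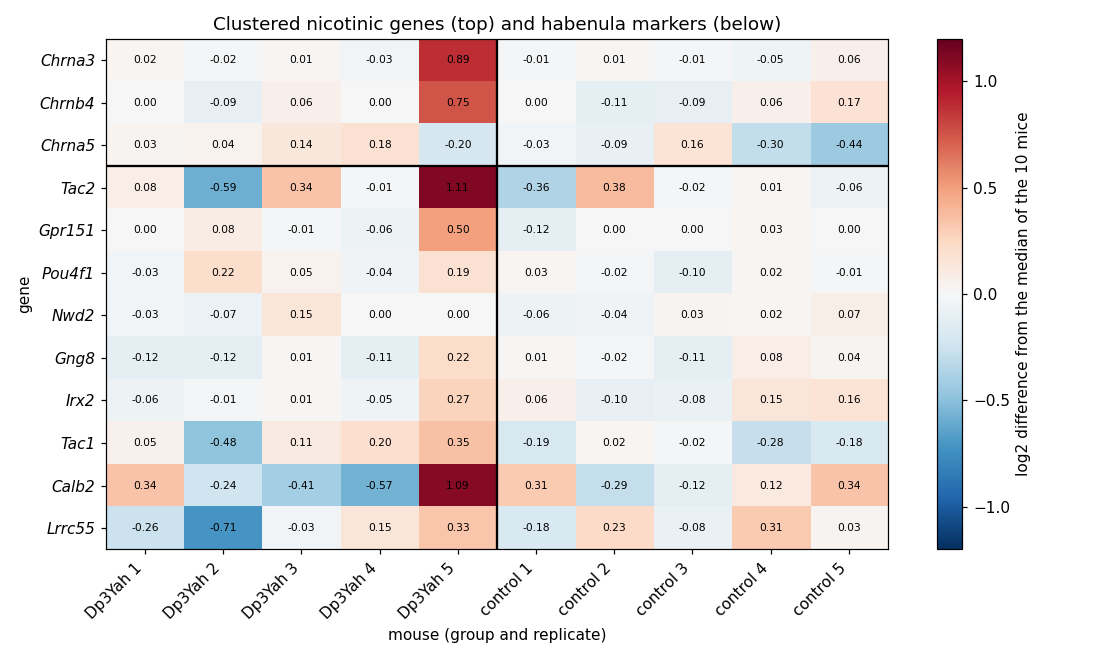
Log2 difference of each mouse from the median of the 10 mice, for the 3 nicotinic genes of the chromosome 9 cluster (top) and 9 habenula markers (below). Columns are the 5 Dp3Yah and 5 control mice, and red is above the median. Dp3Yah replicate 5 holds the highest value for Chrna3, Chrnb4 and 7 of the markers, while Chrna5 is low in it.

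Of the receptors that couple to Gq, Chrm1, the main muscarinic receptor of pyramidal neurons, had the tightest values of all members. Its log2 values were 9.44, 9.39, 9.39, 9.36 and 9.28 in Dp3Yah mice and 9.45, 9.50, 9.50, 9.45 and 9.36 in controls. Control replicate 5 was low enough to fall among the Dp3Yah mice, and the other 4 controls were above the highest of them. The difference was -0.08 (SE 0.0438, 95% interval -0.18 to 0.01, limma adjusted p = 0.922). The exact permutation p was 0.0635, with 0.00794 the smallest this design allows. Chrm1 lies on chromosome 19 (chr19:8664005-8683606).

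Chrm3, the other Gq-coupled receptor, lies on chromosome 13 (chr13:9875486-10361062). Its values were 9.40, 9.43, 9.49, 9.60 and 9.24 in Dp3Yah mice and 9.32, 9.48, 9.43, 9.35 and 9.25 in controls. Replicate 5 was the lowest of each group, and apart from Dp3Yah replicate 4, the highest mouse, the groups mixed. The difference was 0.07 (SE 0.0648, 95% interval -0.07 to 0.21, limma adjusted p = 0.945).

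Chrm2, the Gi-coupled receptor, lies on chromosome 6 (chr6:36387991-36528638) and had the largest difference of the members. Its values were 8.21, 7.78, 8.11, 8.42 and 8.30 in Dp3Yah mice and 8.36, 8.42, 7.92, 8.46 and 8.61 in controls. As for Chrna4, Dp3Yah replicate 2 and control replicate 3 were the lowest mice, and with them the groups overlapped over most of their range. The difference of -0.19 (SE 0.131, 95% interval -0.48 to 0.09) had a limma adjusted p of 0.934 and an exact permutation p of 0.262, although Chrm2 was the other member past the rank test threshold. It ranged from -0.30 without control replicate 3 to -0.10 without Dp3Yah replicate 2. The mean of 12 interneuron markers was lowest in Dp3Yah replicate 2 (9.00 against 9.11 to 9.25 in the other mice), as were those of general neuron markers (11.40) and habenula markers (6.39). The CA pyramidal cell mean, in contrast, was highest in Dp3Yah replicate 2 (9.11 against 8.79 to 9.01 in the other mice). The interneuron mean was mid-range in control replicate 3 (9.16), the other mouse low in Chrm2. The part of any of these lists in the values was not tested.

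Ache, on chromosome 5 (chr5:137288247-137294466), was measured at 8.14, 8.02, 8.37, 8.23 and 8.32 in Dp3Yah mice and at 7.99, 8.22, 8.00, 8.26 and 8.10 in controls. The 2 highest mice were Dp3Yah and the 2 lowest controls, with mixing between. The difference was 0.10 (SE 0.0740, 95% interval -0.06 to 0.26, limma adjusted p = 0.939, exact permutation p = 0.238), and 0.15 without Dp3Yah replicate 2.

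The members differed in how much they varied between mice of a group, in part through single mice. Chrna3 had a within-group SD of 0.284, above that of 99.4% of genes of like level (within 0.25 of its log2 mean), but of 0.0354, above only 2.05%, without Dp3Yah replicate 5. For Chrnb4 the SD of 0.259 (above 97.6%) fell to 0.0985 (above 47.9%) without the same mouse, and for Chrna4 that of 0.261 (above 98.1%) fell to 0.163 (above 92.3%) without Dp3Yah replicate 2. Chrm2 (0.252, above 96.6%) and Chrna5 (0.195, above 95.2%) kept an SD above that of over 93.0% of such genes when either of these mice was left out. Without Dp3Yah replicate 2 and control replicate 3, however, Chrm2 fell to 0.120 (above 72.5%). Without replicate 5 of both groups Chrna5 fell to 0.141 (above 80.0%). Chrna7, Ache, Chrm3 and Chrnb2 were in the middle, at 0.138, 0.132, 0.112 and 0.102. Chrm1 was at the other end, with an SD of 0.0592, above that of only 13.6% of genes of like level.

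Correlations between members were taken over the 10 mice after removal of the group means. Where the 2 mice farthest from the median of the first gene were left out, these means were kept. Of 7 pairs correlated for a shared receptor, locus or pathway, none had a permutation p that passed after adjustment over the 7. Chrna3 and Chrnb4 gave r = 0.945 over 10 mice (permutation p = 0.0404, adjusted 0.110) and rho = 0.733 (p = 0.0878, adjusted 0.307). This r was 0.717 without the 2 mice farthest in Chrna3, Dp3Yah replicates 4 and 5. The kept Dp3Yah mean includes the high replicate 5, so 0.717 holds an offset between the groups. With group means taken again, r was 0.408 without Dp3Yah replicate 5 alone. Chrna5 and Chrnb4 gave r = -0.666 (permutation p = 0.0119, adjusted 0.0833) and rho = -0.455 (p = 0.147, adjusted 0.314), and r = -0.760 without control replicates 3 and 5. Chrna3 and Chrna5 gave r = -0.510 (permutation p = 0.0504, adjusted 0.110) and rho = -0.467 (p = 0.0872, adjusted 0.307), and r = -0.191 without the 2 mice farthest in Chrna3. Without replicate 5 of both groups, with group means taken again, r was -0.217 for Chrna3 and Chrnb4 and 0.312 for Chrna3 and Chrna5. For Chrna5 and Chrnb4 it was -0.398 without these mice, and -0.701 without Dp3Yah replicate 5 alone. Without any 1 mouse, r of Chrna5 and Chrnb4 stayed between -0.729 and -0.645, and it weakened only where replicate 5 of both groups was left out. The ties of Chrna3 depended more on which mice were left out.

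For Chrna4 and Chrnb2, the partners of the main brain receptor, r was 0.582 (permutation p = 0.108, adjusted 0.151) and rho 0.479 (p = 0.184, adjusted 0.314). It turned to -0.307 without Dp3Yah replicate 2 and control replicate 3, so the relation rested on these mice. The same mice carried the relation of Chrm2 and Ache, with r = 0.554 (permutation p = 0.130, adjusted 0.151), rho = 0.394 (p = 0.297, adjusted 0.347) and r = -0.101 without them. Chrm1 and Chrm3 gave r = 0.646 (permutation p = 0.0630, adjusted 0.110) and rho = 0.455 (p = 0.224, adjusted 0.314), with r = -0.0728 without replicate 5 of each group. Chrna4 and Chrna5 gave r = -0.364 (permutation p = 0.289, adjusted 0.289) and rho = -0.236 (p = 0.539, adjusted 0.539), and r = -0.213 without the 2 farthest mice.

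**Figure D4:**
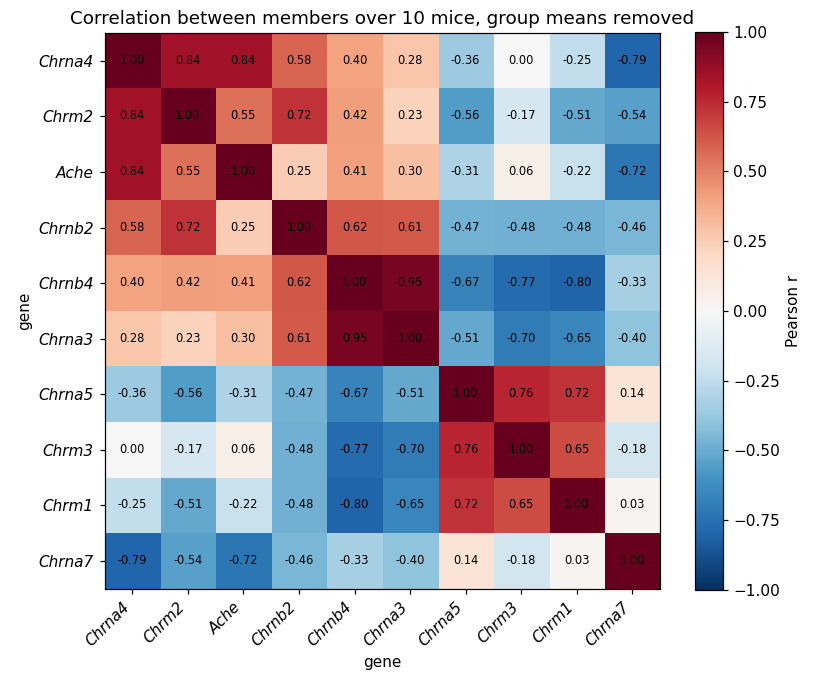
Pearson r between each pair of members over 10 mice after removal of the group means, from -1 (blue) to 1 (red), with no test. Chrna4 gives 0.84 with Chrm2 and with Ache, which become 0.318 and 0.767 without Dp3Yah replicate 2 and control replicate 3 (group means taken again). Chrna5 gives 0.72 with Chrm1 and 0.76 with Chrm3, which become 0.166 and 0.471 without replicate 5 of both groups, and all values share the same arrays.

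As a description with no test, over the same arrays, each member was set against the genes above the median level. The closest to Chrna4 were Rab36 and Necab3 (r = 0.983 each), and 122 genes exceeded 0.9 with it. Without Dp3Yah replicate 2, its lowest mouse, these r were 0.952 and 0.950 and the count was 25. Those closest to Chrna3 were Rpl9 (0.952) and Erlin2 (0.950), which fell to 0.288 and 0.738 without Dp3Yah replicate 5. For Ache, Ldhb (0.967) and Camk2n2 (0.961) were closest, with 0.949 and 0.944 without Dp3Yah replicate 2. For Chrm1 no gene exceeded 0.9, and Rbm27 (0.880) and Atg2b (0.879) came closest.

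The rest of the cholinergic pathway was taken from 7 lists, of which 47 genes were analysed here. None passed at limma adjusted p under 0.05, against 0.0150% of all genes. At an unadjusted p under 0.05 the count was 1 (2.13% against 5.08% of all genes), and 2 passed the rank test, Chrm5 and Colq (4.26% against 4.59%), so neither share exceeded that of all genes. The difference was positive for 20 and negative for 27 (57.4% negative against 53.2% of all genes), with a median of -0.02. Dp3Yah replicate 2 held the lowest value for 15 of the 47 (31.9% against 23.8% of all genes), and Dp3Yah replicate 5 the highest for 4 (8.51% against 11.1%).

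Of the 10 other nicotinic subunits 4 were above the background bound, 2 differences were positive and 8 negative. Chrna2, the alpha2 subunit of certain interneurons, lay at 4.37 to 4.54 in all mice, under the bound. The muscle subunit Chrna1 lay between 4.99 and 5.41. Of the subunits of the muscle endplate, Chrnd differed by 0.09 and Chrne by -0.07. The other muscarinic receptors were measured above background in both cases. Chrm4, Gi-coupled like M2, differed by -0.07 (SE 0.118). Chrm5, Gq-coupled and known from dopamine neurons, differed by 0.24 (SE 0.160, limma adjusted p = 0.928). Its values were 6.43, 5.85, 5.82, 5.53 and 5.54 in Dp3Yah mice and 5.94, 5.48, 5.73, 5.46 and 5.34 in controls, so that Dp3Yah replicate 1 was the highest mouse and the others overlapped.

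The differences of Bche, the butyrylcholinesterase gene, and of the anchors Prima1 and Colq were negative, and none passed over all genes. Colq, the collagen tail that anchors acetylcholinesterase at the endplate, was at 5.77, 5.79, 5.83, 5.76 and 5.76 in Dp3Yah mice and at 5.79, 5.89, 5.95, 5.98 and 5.91 in controls. It had the smallest unadjusted limma p of the pathway lists (difference -0.12, SE 0.0424, exact permutation p = 0.0159, limma adjusted p = 0.922), and 4 of 5 Dp3Yah mice were below all controls. Prima1, the membrane anchor of brain acetylcholinesterase, differed by -0.06 and Bche by -0.02. Of the genes that assemble and tune nicotinic receptors 6 had a positive and 4 a negative difference. The chaperone Ric3 differed by 0.10, and the Ly6 family genes Ly6e and Ly6h by -0.07 and 0.08.

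Genes of the cholinergic neuron itself, a cell whose body is known to lie mostly outside the hippocampus, were near background. Chat, choline acetyltransferase, lay at 4.77 to 4.95, and Slc5a7, the choline transporter, at 4.70 to 4.95, both under the bound. Slc18a3, the vesicular acetylcholine transporter, lay at 5.31 to 5.60 and differed by 0.08. Downstream of muscarinic receptors 7 genes had a positive and 6 a negative difference, all above background. The G protein regulator Rgs4 differed by -0.14, the potassium channel Kcnj6 by -0.09 and the G protein subunit Gnai1 by 0.07. Among trophic factors and receptors for basal forebrain neurons, Bdnf differed by -0.14 (exact permutation p = 0.0714, limma adjusted p = 0.922), Ngfr by -0.07 and Ntrk2 by 0.05.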

How the data were processed

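The deposited log2 values, 1 per probe set and mouse, were made by the authors from Affymetrix Mouse Gene ST arrays. RMA, which corrects background, normalises arrays by quantiles and summarises probes, is named in the submitters' processing notes beside limma and mm10. Their versions were not given in the sources used here. Array medians were 5.64 to 5.71, and no 2 arrays were identical. The number of arrays limits the precision.

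Of 35556 probe sets, 21789 had 1 gene in the platform annotation, 1621 several and 12146 none. The first kind was used, with the highest mean where a gene had more than 1 (998 genes). Names and coordinates came from RefSeq GRCm38.p6, which held 19856 of 19939 genes. Promoter windows came from the same build. Members were not ranked against each other by level, since probes differ. Levels served to set each against the background bound, the median of all genes and genes of like level.

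Groups came from the labels, which call the mice biological replicates. Dp3Yah and control were compared in R 4.3.3 with limma 3.58.1 (lmFit, eBayes, no covariate, two-sided, Benjamini-Hochberg over all genes, threshold 0.05). Single members were also tested by exact permutation, and pairs by 100000 permutations within groups (numpy 2.4.6). The rank test used a trim of 0.25. The scripts were tested on simulated data. The alternatives were a replicate block, other probe summaries, filters on dim genes, quantile normalisation, median centring, trended and robust variance, array weights, the rank test and leaving out each mouse. Spread, correlations in the plot and likeness without Dp3Yah replicates 2 or 5, or with a control left out too, were added after seeing the data.

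The members, lists and tests were chosen with earlier results of these data known. All members were named, and of each pathway list up to 3 genes with the smallest unadjusted p, plus Chat, Slc18a3, Slc5a7, Chrna1 and Chrna2. Of each marker list 2 genes were to be named, and the habenula genes were printed in full after their values were seen. The dentate genes past the rank test threshold were also named after their values were seen. The lists for choroid plexus, with a mean of 6.31 to 8.34 in Dp3Yah mice and 6.21 to 8.47 in controls, and for septum and striatum (7.05 to 7.54 and 7.06 to 7.46) and neurons in general (11.40 to 11.62 and 11.47 to 11.60) were computed too. Dentate lists gave 7.77 to 7.99 and 7.89 to 8.08, and CA lists 8.79 to 9.11 and 8.84 to 9.00.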

Additional observations from a re-analysis of the deposited data

Results flagged for a closer look

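In each group of 5 mice the most extreme mouse was compared with its neighbour by Dixon's test at the 95% level. Of 96 groups examined, 7 were flagged, of which 3 of the 20 groups of members, and chance flags about 1 in 20 groups. Chrna3 and Chrnb4 were flagged for Dp3Yah replicate 5, at log2 values of 6.08 and 6.75, where the next Dp3Yah mice were at 5.21 and 6.06. Habenula markers were highest in the same mouse, with a list mean of 7.06 against 6.39 to 6.65 in the other mice, and their part in these values was not tested. Chrna4 was flagged for Dp3Yah replicate 2, the lowest at 8.88, with the next at 9.47.

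Among the other pathway genes, Gnai1 was highest in Dp3Yah replicate 2 (10.99), Ntrk2 in Dp3Yah replicate 3 (10.44) and Chrna1 in control replicate 1 (5.38), and Chrna2 was lowest in Dp3Yah replicate 5 (4.37), under the background bound.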

How the results depend on the processing

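The limma count of members called was 0 under every alternative fitted with limma, also without any 1 mouse (0 to 0), and the lowest adjusted p of a member in these was 0.771. The rank test put 2 members and 2 other pathway genes past its threshold, and 915 of all genes against 3 by limma. That threshold is set by the spread over all genes, so the 915 are no measure of change. For all genes limma called 6 with trended and robust variance, 5 with array weights and 1 to 4 without 1 mouse, the lowest count being that without Dp3Yah replicate 4 or control replicate 3, 4 or 5. Of 197 member values under an alternative 186 kept direction and side of the threshold. The sign of Chrna4 turned with array weights (0.0343). Without 1 mouse the log2 differences ranged from -0.0037 to 0.226 for Chrna3, -0.108 to 0.0987 for Chrna4, -0.0024 to 0.0903 for Chrna7, -0.0238 to 0.0463 for Chrnb2 and -0.0139 to 0.199 for Chrnb4, with a change of sign in each. They kept their sign for Chrna5 (0.11 to 0.26), Chrm1 (-0.10 to -0.06), Chrm2 (-0.30 to -0.10), Chrm3 (0.03 to 0.11) and Ache (0.06 to 0.15). The filter above the median level leaves out Chrna3, Chrna5 and Chrnb4. Of the 7 correlated pairs, 1 passed after quantile normalisation (Chrna5 with Chrnb4, adjusted permutation p = 0.0476) and 0 to 2 without 1 mouse (Chrna5 with Chrnb4 and Chrm1 with Chrm3 without Dp3Yah replicate 4, Chrna3 with Chrna5 without control replicate 4). The cause was not tested for any of these.

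Deviations of mice with the same replicate number correlated at -0.364 to 0.315, and 2 of 5 were best with their own number. Whether the numbers pair mice cannot be told from so few. With a replicate block limma called 3 genes, 0 members and 0 other pathway genes. The unadjusted limma p of Chrna5 was 0.0304 with the block (adjusted 0.941) and 0.104 without it. Chrna3, Chrna5 and Chrnb4 lay under the median level of all genes (6.38), where signal over background limits what the arrays can show.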
